A study of Mus musculus with 41 samples.

Results

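The Dlk1-Dio3 imprinted cluster on mouse chromosome 12 was followed through 7 of its genes, Meg3, Rian, Mirg, Dlk1, Rtl1, Dio3 and Begain, chosen by symbol from the 24028 gene symbols in the deposited tables. All 7 were found, each on 1 row of every library. The RNA was measured in 13 libraries of mouse androgenetic haploid embryonic stem cells (AG-haESCs), stem cells that carry only a sperm-derived genome, among 41 samples of the study. All lines had the strain label C57BL/6, grew on feeder fibroblasts and were enriched for haploid cells by sorting. The question was whether the other noncoding RNAs of the cluster followed Meg3 in wild-type, IG-DMR-deleted and switched cells.

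The wild-type line 2i-14 was kept in 2i/L, a serum medium with LIF and the inhibitors PD0325901 and CHIR99021, and gave a library at each of p18, p39 and p50 (3 in all). The lines TSa2i-14 (p22, p47 and p54) and TSa2i-C57 (p9 and p58), both wild type, were kept in TSa2i/L, a regimen in which cells derived with CGP77675 and CHIR99021 in serum are then grown with the same inhibitors without serum (SF/a2i/L). They gave 5 libraries. Cells of 2i-14 that had left 2i/L and spent 5 passages in SF/a2i/L, called switched here, made up 1 library. The deleted lines were 2i-O48, without IG-DMR and H19-DMR, and 2i-O48-TKO, without the H19 gene as well. Each was sequenced once in 2i/L and once after the same switch. Libraries of a line are passages or cultures of that line. P-values therefore measure the spread between these libraries, and medium or genotype cannot be told apart from the line that carries it.

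The cluster holds protein-coding genes that are usually transcribed from the paternal chromosome (Dlk1, Rtl1, Dio3) and noncoding RNAs that are usually transcribed from the maternal one (Meg3, Rian, Mirg). Its control element, the IG-DMR, lies between Dlk1 and Meg3 and is methylated on the paternal copy, where the noncoding RNAs are normally silent. Begain lies at the edge of the cluster, upstream of Dlk1. Because AG-haESCs carry a paternal genome alone, any Meg3, Rian or Mirg RNA that they make comes from a copy that is silent in a normal paternal setting. This does not cover RNA of feeder fibroblasts that a library may also hold.

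In the GENCODE vM1 annotation of NCBIM37 (mm9), the genes lie in the order Begain (chromosome 12, 110270397 to 110291589, minus strand), Dlk1 (110691033 to 110701546, plus), Meg3 (110779211 to 110809936, plus), Rtl1 (110827404 to 110838540, minus), Rian (110842155 to 110899919, plus), Mirg (110973191 to 110987665, plus) and Dio3 (111517278 to 111519307, plus). Meg3, Rian and Mirg are annotated as long intergenic noncoding RNAs, and they share the plus strand. Promoter windows, from 250 bases before to 50 bases after the start, were taken from the RefSeq table for GRCm38.p6, which held 6 of the 7 genes and not Rtl1. Each window of the 6 genes matched NCBIM37 chromosome 12 at 1 position. The windows of the noncoding RNAs are printed because the comparisons turn on whether these RNAs moved together. Capitals mark TGCCGC, the core letters bound by the imprint protector ZFP57 when methylated, the cAMP response element TGACGTCA, and TATAAA, each on either strand; in Meg3 both strands of TATAAA overlap in 1 run.
Meg3, chr12:110778956-110779255, plus strand: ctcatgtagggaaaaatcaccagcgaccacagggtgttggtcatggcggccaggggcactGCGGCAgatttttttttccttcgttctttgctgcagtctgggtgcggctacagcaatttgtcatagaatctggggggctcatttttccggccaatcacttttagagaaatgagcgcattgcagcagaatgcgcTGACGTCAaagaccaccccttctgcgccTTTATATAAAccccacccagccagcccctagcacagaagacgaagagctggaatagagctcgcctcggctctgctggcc
Rian, chr12:110841905-110842204, plus strand: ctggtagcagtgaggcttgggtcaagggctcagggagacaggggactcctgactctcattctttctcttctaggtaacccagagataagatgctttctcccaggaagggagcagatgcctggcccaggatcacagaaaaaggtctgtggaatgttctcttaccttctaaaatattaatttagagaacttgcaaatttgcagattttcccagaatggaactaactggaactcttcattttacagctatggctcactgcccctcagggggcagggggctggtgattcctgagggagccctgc
Mirg, chr12:110972941-110973240, plus strand: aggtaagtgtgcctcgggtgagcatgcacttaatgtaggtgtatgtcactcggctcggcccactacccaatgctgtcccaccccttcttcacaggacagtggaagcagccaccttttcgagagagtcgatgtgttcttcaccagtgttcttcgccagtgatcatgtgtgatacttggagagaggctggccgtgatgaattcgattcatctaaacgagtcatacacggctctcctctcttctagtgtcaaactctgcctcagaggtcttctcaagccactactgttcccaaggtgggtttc

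The first Meg3 window held 13 CpG sites, 1 TGCCGC, 1 TGACGTCA and 2 overlapping TATAAA matches. A second RefSeq start of Meg3 held 1 CpG site and none of the letters searched. The Rian window had 0 CpG sites and the Mirg window 10, with no match to any of the letters searched. The median over all 32851 windows was 7 CpG sites. TGCCGC stood in 11.6% of all windows, TGACGTCA in 1.79% and TATAAA in 13.6%.

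Depth was estimated, since FPKM (fragments scaled to transcript length and to library size) carries no counts, and lay between 12700000 and 19900000 fragments. Pou5f1, Nanog, Sox2, Esrrb, Zfp42 and Klf4, markers of embryonic stem cells, were at 10.7 FPKM or more in every library. Of 15 fibroblast markers, 2i-14 p39 had 11 at 1 FPKM or more, TSa2i-14 p54 had 13 and TSa2i-C57 p58 had 9, with summed levels of 73.5 to 173.3 FPKM. The other 10 libraries had 1 to 4 such markers and summed levels of 4.87 to 28.2 FPKM. In those 10 libraries the defining markers Col1a1 and Dcn were at 0.351 to 1.59 and 0 to 3.55 FPKM, with Dcn at 0 in 3. In 2i-14 p39, TSa2i-14 p54 and TSa2i-C57 p58, Col1a1 was at 16.9, 6.37 and 1.18 FPKM and Dcn at 3.76, 58.2 and 19.6. Col1a1 alone therefore did not separate TSa2i-C57 p58 from the 10, and Dcn in 2i-14 p39 was close to their highest value. The Y-linked gene Eif2s3y, taken as a sign of feeder RNA, was at 3.12, 2.07 and 1.22 FPKM in the same 3 libraries. It was also at 0.166 FPKM in TSa2i-14 p22 and 0.124 FPKM in switched 2i-14, and at 0 in the others. Some feeder RNA in TSa2i-14 p22 and switched 2i-14 is therefore possible. In switched 2i-14 cells microRNA loci held 67.2% of the summed FPKM, against 23.2% in 2i-14 p18 and at most 1.06% elsewhere; without them the sums were 651108 to 735365 FPKM in all 13 libraries. In bulk libraries, fewer cells that express a gene and less RNA per cell cannot be told apart.

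**Figure D1:**
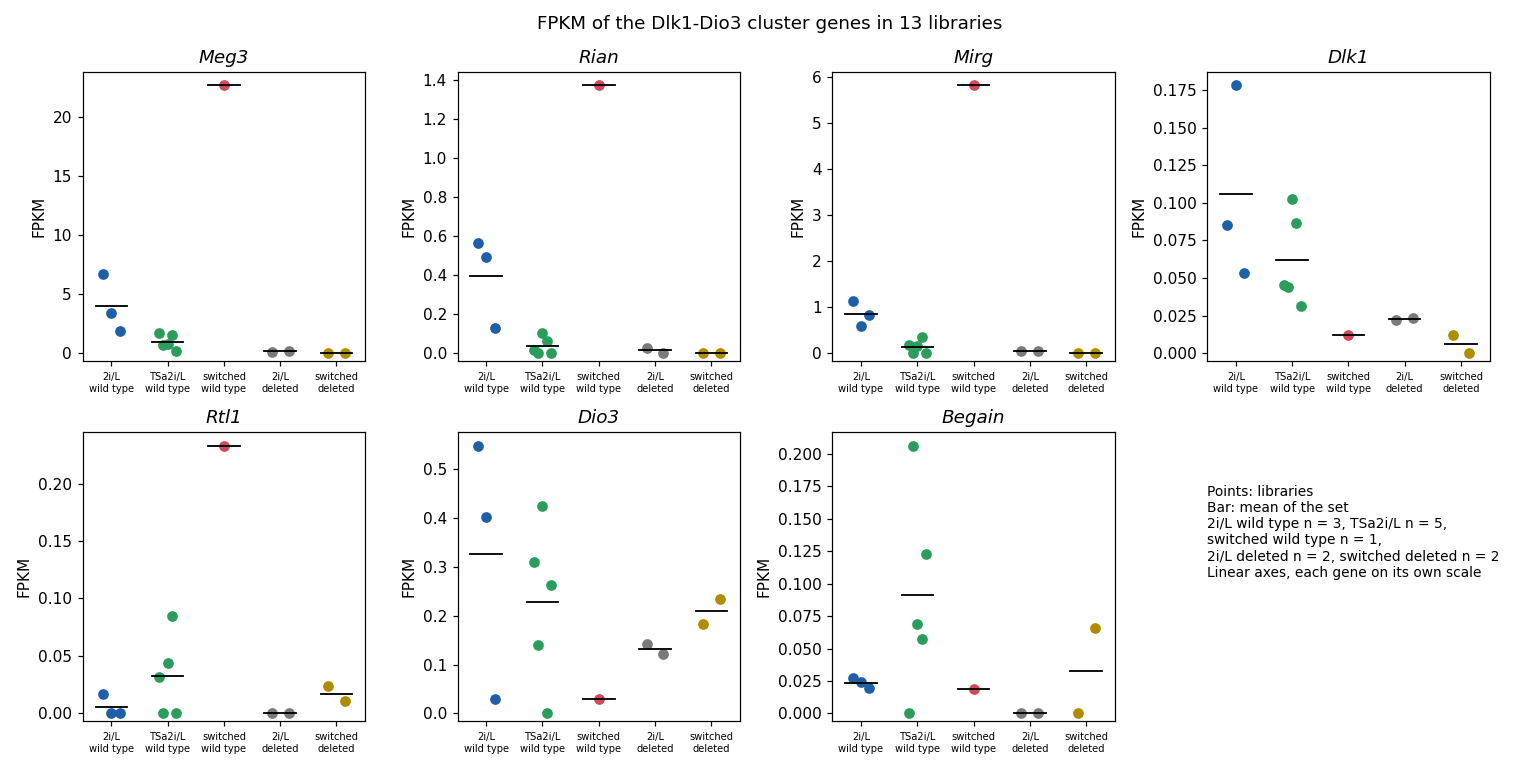
FPKM (linear axis, a scale per gene) of the 7 cluster genes in the 13 libraries, 1 point each, grouped as 2i/L wild type (n = 3), TSa2i/L wild type (n = 5), switched wild type (n = 1), 2i/L deleted (n = 2) and switched deleted (n = 2); black bars are group means. Meg3, Rian, Mirg and Rtl1 are highest in switched wild-type cells, at 22.7, 1.38, 5.82 and 0.233 FPKM, and Meg3, Rian and Mirg lie higher in every 2i/L wild-type library than in any TSa2i/L or deleted library.

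Meg3, a long noncoding RNA transcribed from just downstream of the IG-DMR, was the most abundant gene of the cluster per length in the wild-type 2i-derived cells. Its level was 6.68 FPKM in 2i-14 p18, 3.43 in p39 and 1.91 in p50. In TSa2i/L it was 1.73 FPKM in TSa2i-14 p22, 0.668 in p47, 0.808 in p54, 1.58 in TSa2i-C57 p9 and 0.147 in p58. All 3 libraries of 2i-14 in 2i/L lay above all 5 TSa2i/L libraries. The means were 4.01 ± 2.44 (SD, n = 3) and 0.987 ± 0.661 FPKM (SD, n = 5), a ratio of 4.06.

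Rian, the noncoding RNA that hosts the snoRNAs of the cluster, was at 0.564 FPKM in 2i-14 p18, 0.492 in p39 and 0.128 in p50. In TSa2i/L it was 0.0185 FPKM in TSa2i-14 p22, 0 in p47, 0.102 in p54, 0.0638 in TSa2i-C57 p9 and 0 in p58. The groups did not overlap. The means were 0.395 ± 0.234 (SD, n = 3) and 0.0369 ± 0.0448 FPKM (SD, n = 5), with the second partly under the 0.0491 to 0.0628 FPKM that 3 fragments of Rian are worth in those 5 libraries.

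Mirg, the noncoding host RNA of microRNAs at the far end of the cluster, was at 1.13 FPKM in 2i-14 p18, 0.599 in p39 and 0.834 in p50. In TSa2i/L it was 0.183 FPKM in TSa2i-14 p22, 0 in p47, 0.165 in p54, 0.346 in TSa2i-C57 p9 and 0 in p58. Here too every 2i/L library lay above every TSa2i/L library. The means were 0.854 ± 0.265 (SD, n = 3) and 0.139 ± 0.145 FPKM (SD, n = 5). In the 5 TSa2i/L libraries, 3 fragments of Mirg are worth 0.162 to 0.208 FPKM. The values of TSa2i-14 p47 and TSa2i-C57 p58 were under that limit, and those of TSa2i-14 p22 and p54 stood at it, with about 3 fragments each.

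The difference of mean log2(FPKM + 1), 2i/L minus TSa2i/L, was 1.29 for Meg3, 0.41 for Rian and 0.70 for Mirg. Each gave p = 0.0357 in a two-sided exact permutation test over 56 splits, which is the smallest p this design allows, in a family of 14 member tests. Among 16498 genes above 0 FPKM in 3 or more of the 8 libraries, 674 (4.09%) had all 2i/L libraries above all TSa2i/L libraries, so that 3 of 7 members did so against 4.09% of all genes. In the limma fit of 10387 genes, of which 786 (7.57%) were called at an adjusted p under 0.05, Meg3 passed the expression filter of 1 FPKM in 3 libraries and fell by 1.29 on the log2 scale (SE 0.34, adjusted p = 0.0437) in TSa2i/L. Meg3 was at 1 FPKM or more in all 3 libraries in 2i/L and in 2 of the 5 in TSa2i/L, so the group with the higher level was enough to carry it past the filter. The other 6 members did not pass. The Meg3 call was lost in 10 of 16 alternatives, with an adjusted p of 0.255 without the 3 libraries that carried fibroblast RNA, where its log2 change was -1.06. It was also lost when any of 2i-14 p18, 2i-14 p39, TSa2i-14 p47, TSa2i-14 p54 or TSa2i-C57 p58 was left out, with adjusted p of 0.0716 to 0.142 by limma. Without the 3 libraries, the levels of Meg3, Rian and Mirg were still higher in 2i/L, with log2 differences of 1.06, 0.37 and 0.76 (exact permutation p = 0.2, the smallest that 2 against 3 libraries can give).

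Within lines, Meg3 in 2i-14 was at 6.68, 3.43 and 1.91 FPKM at p18, p39 and p50. Rian had the same order, at 0.564, 0.492 and 0.128 FPKM, whereas Mirg was higher at p50 than at p39. TSa2i-C57 had all 3 noncoding RNAs at p9, at 1.58, 0.0638 and 0.346 FPKM, and at p58 only Meg3, at 0.147 FPKM. Each passage is 1 library, so these differences between passages were not tested.

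The deletion of H19 cannot be checked by its RNA, which was at 0 FPKM in 2i-O48-TKO and 0.0686 after the switch but also at 0 to 0.0982 FPKM in the 4 libraries of 2i-14. In the deleted lines the 3 noncoding RNAs of the cluster were near the detection limit. Meg3 was at 0.132 FPKM in 2i-O48 and at 0.164 FPKM in 2i-O48-TKO, against 1.91 to 6.68 FPKM in 2i-14, a ratio of means of 27.1. In the switched deleted lines it was at 0.0427 and 0.024 FPKM, under the 0.0654 and 0.072 FPKM that 3 fragments of Meg3 are worth there. Rian was at 0.0275 FPKM in 2i-O48 and at 0 in the other 3 deleted libraries. In 2i/L, Mirg was at 0.0446 FPKM for 2i-O48 and 0.0471 for 2i-O48-TKO, about 1 fragment each, and at 0 in both switched deleted libraries. For Mirg, 3 fragments are worth 0.133 to 0.157 FPKM in the 4 deleted libraries, so levels up to that size were not detectable. All 4 wild-type libraries of 2i-14, switched or not, lay above all 4 deleted libraries for Meg3, Rian and Mirg.

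The difference of mean log2(FPKM + 1), wild type minus deleted over 4 libraries each, was 2.68 for Meg3, 0.65 for Rian and 1.32 for Mirg. Each had a two-sided exact permutation p of 0.0286, the smallest that 70 splits allow. Among 16464 genes above 0 FPKM in 3 or more of the 8 libraries, 234 (1.42%) had all wild-type libraries above all deleted ones. Over the 2i/L libraries alone, 3 wild type against 2 deleted, the differences were 2.01, 0.45 and 0.82 (exact permutation p = 0.2, the smallest that 10 splits allow). In the limma fit of 10510 genes, 21 genes (0.200%) were called between the deleted lines and wild type in 2i/L. Meg3 was lower by a log2 change of -2.01 (SE 0.36, adjusted p = 0.113) and Mirg by -0.82 (SE 0.21, adjusted p = 0.305), and neither was called. Both members passed the filter of this fit only through 2i-14, Meg3 with all 4 of its libraries at 1 FPKM or more and Mirg with p18 and the switched library alone, while the deleted lines were at 0.164 FPKM or less. The Meg3 contrast passed the threshold with a pseudocount of 0.1 (log2 change -3.88, adjusted p = 0.0451 by limma) and without 2i-14 p50 (log2 change -2.35, adjusted p = 0.0315 by limma).

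After the switch, the noncoding RNAs were higher together in 2i-14 and no higher in the deleted lines. Meg3 was at 22.7 FPKM in switched 2i-14, about 1100 fragments by estimate, which was 3.40 to 11.9 times its level in the 3 passages in 2i/L. Mirg was at 5.82 FPKM, about 130 fragments, and 5.16 to 9.71 times its level in 2i/L. Rian was at 1.38 FPKM, about 101 fragments, and 2.44 to 10.7 times its level in 2i/L. These were the highest values of all 3 RNAs among the 13 libraries. Switched 2i-14 is 1 library, so this difference has no replicate of its own. It is also the library with 67.2% of its summed FPKM at microRNA loci, whose part in these levels was not tested.

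**Figure D2:**
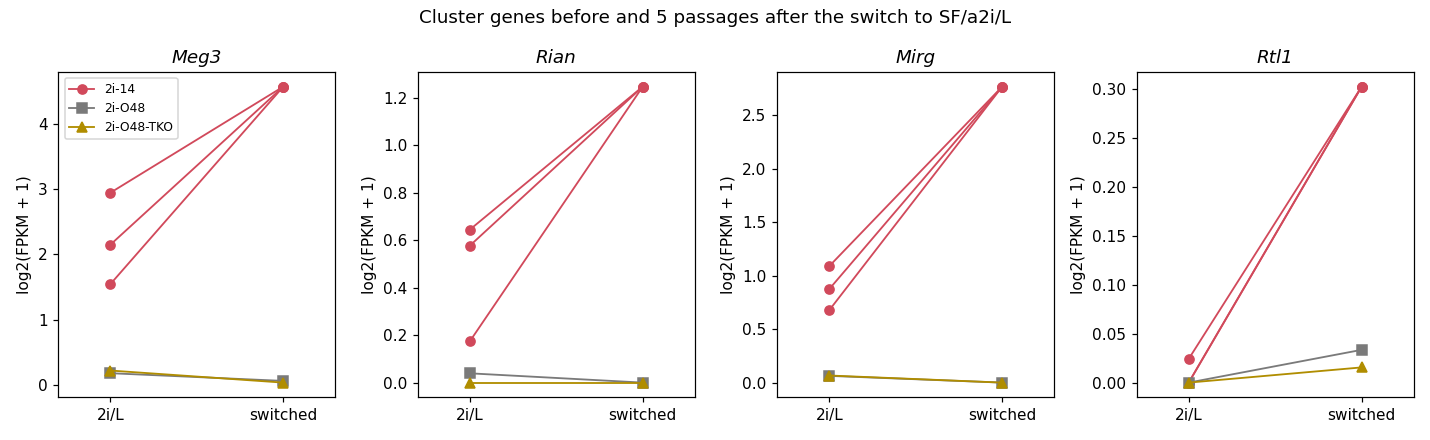
log2(FPKM + 1) of Meg3, Rian, Mirg and Rtl1 in 2i/L and after 5 passages in SF/a2i/L, with a line from each 2i/L library to the switched library of the same cell line (2i-14 with 3 passages before and 1 library after, 2i-O48 and 2i-O48-TKO with 1 each). The 2i-14 lines all go up to the same switched library, at 22.7, 1.38, 5.82 and 0.233 FPKM. The deleted lines end at 0.0427 FPKM or less for every gene. For Rtl1 they go up as well, from 0 to 0.0235 FPKM in 2i-O48 and to 0.0108 FPKM in 2i-O48-TKO.

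In the deleted lines the switch contrast of the 4-group limma fit, in which 350 of 10510 genes (3.33%) were called, gave Meg3 a log2 change of -0.15 (SE 0.40, adjusted p = 0.846) and Mirg one of -0.06 (SE 0.23, adjusted p = 0.888). Both signs rest on fewer than 8 fragments a library, and the median over all genes tested was -0.15. Under median centring the log2 changes were 0.07 and 0.16, both short of the threshold. The difference of the switch between genotypes, wild type minus deleted, was 2.51 for Meg3 (SE 0.61) and 1.95 for Mirg (SE 0.35). By limma, 0 of 10510 genes (0%) were called in this contrast and 284 had an unadjusted p under 0.05, so neither member was called. The same limit of the filter holds here. The lone switched wild-type library was assumed to vary like the other groups in this fit.

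Per length, Mirg and Rian were below Meg3 in every library. As a share of the Meg3 FPKM, Mirg was 16.9%, 17.5% and 43.6% at the p18, p39 and p50 passages of 2i-14, and 25.6% in switched 2i-14. Rian was 8.43%, 14.4% and 6.70% of Meg3 in the same 3 passages and 6.06% in switched 2i-14. The shares in the switched library thus lay inside the range of the 2i/L passages for Mirg and just under it for Rian. In TSa2i/L the shares ran from 0% to 21.9% for Mirg and from 0% to 12.6% for Rian, with both at 0 in TSa2i-14 p47 and TSa2i-C57 p58.

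Across the 13 libraries, which share lines and media and in which values under 1 FPKM carry few fragments, the log2(FPKM + 1) of Mirg followed that of Meg3 with Pearson's r = 0.95 and Spearman's rho = 0.93. Rian followed Meg3 with r = 0.94 and rho = 0.86, and Mirg with r = 0.95 and rho = 0.93. Without switched 2i-14, over 12 libraries, Meg3 had r = 0.92 and rho = 0.91 with Mirg and r = 0.87 and rho = 0.83 with Rian. A high value was not limited to the noncoding RNAs. Dlk1 had r = 0.73 and rho = 0.86 with Meg3 over these 12 libraries, and r = 0.28 and rho = 0.53 over all 13. For Rtl1 the values were r = 0.17 and rho = 0.20 over 12 libraries, and r = 0.73 and rho = 0.37 over 13. These are descriptions, because the libraries are not independent.

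**Figure D3:**
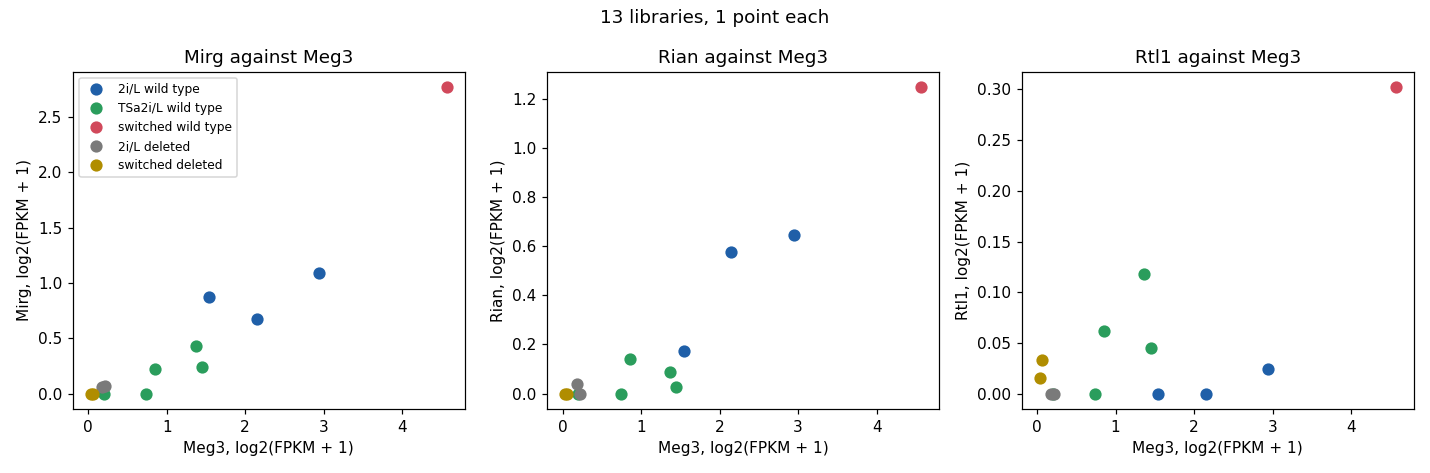
log2(FPKM + 1) of Mirg, Rian and Rtl1 against that of Meg3, 1 point per library (13 libraries, coloured by group). Mirg and Rian are highest where Meg3 is highest, with r = 0.95 and 0.94. In the TSa2i/L and deleted libraries most of their values are under 3 fragments. Their order departs from that of Meg3 in places. Mirg is at 0.834 FPKM in 2i-14 p50 and 0.599 in p39, where Meg3 is at 1.91 and 3.43. Rtl1 stands apart in the switched wild-type library alone, at 0.233 FPKM against at most 0.0848 FPKM elsewhere.

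Among 11138 genes with 1 FPKM or more in 2 or more libraries, Mirg had the highest correlation with Meg3 over the 13 libraries. It was followed by Mat2b (r = 0.86), Ranbp1 (r = 0.81), Armcx4 (r = 0.80) and Ppp1cb (r = 0.80), none of which lies in the cluster. Rian did not pass that filter, and its own r with Meg3 would have placed it second. For Rian, the leading genes were Mirg (r = 0.95), Meg3 (r = 0.94), Fam76b (r = 0.84), Ranbp1 (r = 0.83) and Armcx4 (r = 0.77). Without switched 2i-14, Mirg was still the first gene for Meg3, while Mat2b, Ranbp1, Armcx4 and Ppp1cb no longer stood among the first 5, which then held Thoc6, Aldh1a2, Smtnl1 and Ssr3 with r = 0.88 to 0.91. Meg3 was then second for Rian (r = 0.87) and Mirg seventh (r = 0.85).

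Rtl1, a retrotransposon-derived coding gene needed in the placenta, was near 0 in most libraries. It was at 0.0169 FPKM in 2i-14 p18, a trace under 1e-06 in p39 and 0 in p50. In TSa2i/L it was at 0.0319 FPKM in TSa2i-14 p22, a trace in p47, 0.0439 in p54, 0.0848 in TSa2i-C57 p9 and 0 in p58. Switched 2i-14 had the highest level, 0.233 FPKM or about 25 fragments. The deleted lines were at 0 in 2i/L and at 0.0235 and 0.0108 FPKM after the switch, about 2 and 1 fragments. The comparison by medium gave a log2 difference of -0.04 (exact permutation p = 0.321) and the comparison by genotype one of 0.07 (exact permutation p = 0.629), and the groups overlapped in both. Rtl1 did not pass the expression filter. In the limma fit without the filter, its difference of the switch between genotypes was 0.27 on the log2 scale. That difference rests on the 1 switched 2i-14 library and on levels near 0 in the others.

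The libraries were made by amplification of full-length cDNA, which keeps no strand, so reads from Rtl1 on the minus strand and from plus-strand RNA across it cannot be told apart. The annotation places 6 microRNA loci antisense to Rtl1 within its span, Mir431, Mir433, Mir127, Mir434, Mir432 and Mir136, from 110828657 to 110833608 on the plus strand. Such microRNAs pair with Rtl1 mRNA over their whole length and are known to direct its cleavage. The mature RNAs of 4 of these loci, from RefSeq, are printed to show what lies opposite Rtl1, with the seed (bases 2 to 8) in capitals.
miR-431-5p: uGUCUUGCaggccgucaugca
miR-433-3p: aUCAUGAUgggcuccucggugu
miR-127-3p: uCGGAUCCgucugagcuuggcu
miR-136-5p: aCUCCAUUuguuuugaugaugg

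The 4 seeds differ from each other. No level can be set beside them: of 59 microRNA loci that the annotation places between Begain and Dio3, 47 were listed in the tables and all 47 stood at 0 FPKM in all 13 libraries. So did the 1 listed snoRNA locus. Short RNAs are poorly caught by this kind of library, so a value of 0 at these loci is listed here without a reading of the microRNAs themselves. The noncoding RNA Dio3os, antisense to Dio3, was the 1 further locus of the interval above 0, at 0 to 0.185 FPKM, with the highest value in switched 2i-14.

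Dlk1, a membrane protein of the Notch ligand family, was at 0.0855 FPKM in 2i-14 p18, 0.178 in p39 and 0.0533 in p50. In TSa2i/L it was between 0.0316 and 0.102 FPKM with a median of 0.0452. It was at 0.0119 FPKM in switched 2i-14, about 1 fragment, at 0.0224 and 0.0236 FPKM in 2i-O48 and 2i-O48-TKO, and at 0.0119 and 0 FPKM in these lines after the switch. In these 5 libraries Dlk1 was under the level of 3 fragments. The log2 difference was 0.06 by medium (exact permutation p = 0.286) and 0.09 by genotype (exact permutation p = 0.114), with overlapping groups in both. Dlk1 was highest in 2i-14 p39 and TSa2i-14 p54, which also carried fibroblast RNA. The third library with fibroblast RNA, TSa2i-C57 p58, had the lowest Dlk1 in TSa2i/L, at 0.0316 FPKM. The part of fibroblast RNA in the level was not tested.

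Dio3, the deiodinase that inactivates thyroid hormone, was at 0.548 FPKM in 2i-14 p18, 0.402 in p39 and 0.0296 in p50. The 5 TSa2i/L libraries ranged from 0 to 0.424 FPKM with a median of 0.263. It was at 0.0289 FPKM in switched 2i-14, about 1 fragment, at 0.143 and 0.121 FPKM in 2i-O48 and 2i-O48-TKO and at 0.183 and 0.235 FPKM in these lines after the switch. The groups overlapped, with log2 differences of 0.10 by medium (exact permutation p = 0.571) and 0.07 by genotype (exact permutation p = 0.629). Dio3 and Meg3 had r = 0.01 and rho = 0.02 over the 13 libraries, and r = 0.44 and rho = 0.27 over the 12 without switched 2i-14.

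Begain, which encodes a guanylate kinase-associated protein, was the lowest of the 7 genes in the wild-type 2i/L libraries after Rtl1. It was at 0.0274 FPKM in 2i-14 p18, 0.0238 in p39 and 0.0193 in p50, and at 0.0189 FPKM in switched 2i-14, about 1 fragment each. In TSa2i/L it ranged from 0 to 0.206 FPKM with a median of 0.0692. Of the deleted libraries, switched 2i-O48-TKO had 0.0659 FPKM and the other 3 had 0. The log2 difference was -0.09 by medium (exact permutation p = 0.143) and 0.01 by genotype (exact permutation p = 0.743). Dlk1, Dio3 and Begain never exceeded about 13 fragments, so differences among groups of a few fragments were not detectable.

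**Figure D4:**
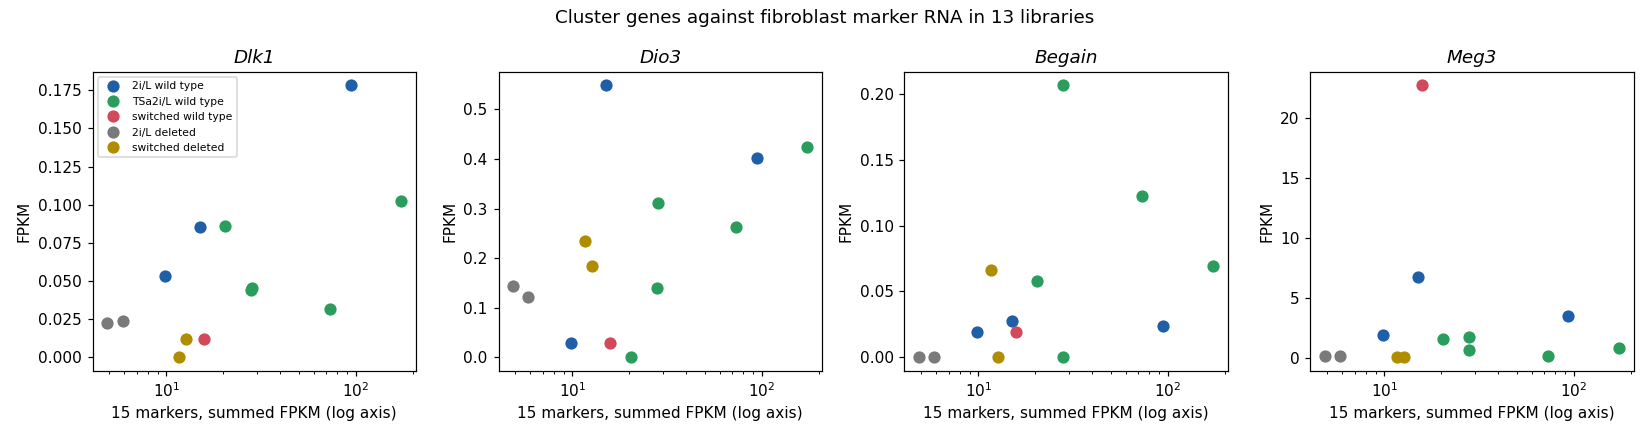
FPKM of Dlk1, Dio3, Begain and Meg3 against the summed FPKM of 15 fibroblast markers (log axis) in 13 libraries, coloured by group. Dlk1 peaks at 0.178 FPKM in a library with a marker sum of 93.9 FPKM. Meg3 peaks at 22.7 FPKM in the switched wild-type library, where the marker sum is 15.9 FPKM. The part of fibroblast RNA in these levels was not tested.

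The 3 libraries with fibroblast RNA held Meg3 at 0.147 to 3.43 FPKM, Rian at 0 to 0.492 FPKM and Mirg at 0 to 0.599 FPKM. All 3 RNAs reached higher values in the other 10 libraries, of 22.7, 1.38 and 5.82 FPKM. Switched 2i-14 had 1 of the 15 markers at 1 FPKM or more.

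Genes outside the cluster and factors that act on DNA methylation or imprints were counted beside it. Of 9 flanking genes, 7 were tested and 1 was called by medium, where 7.57% of all genes were called. This was Wdr25, higher in TSa2i/L by a log2 change of 0.95 (SE 0.21, adjusted p = 0.0232 by limma). Its level was 0.455 to 1.04 FPKM in 2i/L and 1.81 to 3.83 FPKM in TSa2i/L. The group with the higher level was thus enough to carry Wdr25 past the filter. The median log2 change of the 7 was 0.38, against 0.07 over all genes tested, and 4 of the 7 had an unadjusted p under 0.05, against 23.1% of all genes tested. For the deleted lines against wild type and for the switch in the deleted lines, 0 of the 7 were called by limma. Of all genes tested, 0.200% and 3.33% were called there. An unadjusted p under 0.05 was reached by 0 of the 7 in both, against 6.45% and 23.1% of all genes. With so few genes, 0 calls do not show that their levels were unchanged. A list of 12 such factors held Zfp57, Trim28 and the DNA methyltransferases, and also Tet1 and Tet2, which oxidise methylated cytosine. All 12 were tested, and 0 were called by limma in the same comparisons or by medium, where 7.57% of all genes were called. At an unadjusted p under 0.05 there were 3 of 12 by medium, against 23.1% of all genes tested. There was 1 for the switch in the deleted lines, also against 23.1%, and 0 for the deleted lines against wild type, against 6.45%. Zfp57, whose product guards methylation at imprinted regions, was at 32.9 to 98.7 FPKM in all 13 libraries. H19, Igf2 and Rasgrf1, which are tied to other paternally methylated regions, did not pass the filter in any fit.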

How the data were processed

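RNA from 13 libraries of haploid cells was analysed; methylation and chromatin samples were not analysed here. Per the labels and the methods of the study, full-length cDNA amplified from small numbers of cells was sequenced, reads were mapped to mm9 with TopHat and the authors deposited FPKM values from Cufflinks, with no counts. The submitters' processing notes name TopHat2 2.0.11 and Cufflinks 2.2.1. The gene annotation is not given in the sources used here. Groups came from the labels, and the paired lines of the switch are the same cell line by name.

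The members and lists were chosen with earlier results of these data known. Rows of a repeated symbol (268 symbols) were summed. FPKM was tested as log2(FPKM + 1), so changes of low genes are understated. limma 3.58.1 (R 4.3.3) was fitted with an intensity trend and Benjamini-Hochberg adjustment at 0.05, to genes at 1 FPKM or more in 3 of 8 libraries (TSa2i/L against 2i/L) or in 2 of 8 (4 groups of 2i-derived libraries, giving the other 3 contrasts). Members were also tested with two-sided exact permutation tests (scipy 1.17.1) without adjustment, 14 tests in all. Self-tests on simulated data were run first in each run.

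Depth was estimated from the FPKM that 1 fragment is worth on genes over 1500 bases with 1 transcript. A member's fragments were estimated by taking its smallest depth-scaled value as 1 fragment; these estimates, and the 3-fragment limits made from them, vary with isoform and cover counting error only. Named genes were the 7 members, counts from fixed lists, and the 5 genes most correlated with Meg3 and with Rian. Promoter and microRNA sequences came from RefSeq (GRCm38.p6). Figures used matplotlib 3.10.9. Alternatives covered the pseudocount, filter, scaling, repeated symbols, control libraries, the cell line as a block and each library left out.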

Additional observations from a re-analysis of the deposited data

Results flagged for a closer look

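Every value of 2i-14 moved one way after the switch and every value of the deleted lines the other way for 3 members. On the log2(FPKM + 1) scale, Meg3 was higher in switched 2i-14 by 1.63, 2.42 and 3.03 than in p18, p39 and p50, while 2i-O48 changed by -0.118 and 2i-O48-TKO by -0.185. Mirg was higher by 1.68, 2.09 and 1.89, with a change of -0.0629 for 2i-O48 and -0.0664 for 2i-O48-TKO. The lower values in the deleted lines rest on fewer than 8 fragments for Meg3 and about 1 for Mirg, and under median centring the change in these lines was 0.0706 for Meg3 and 0.157 for Mirg. The limma contrast of the difference was called for neither; both members passed its filter only through 2i-14, with 1 switched library. Dio3 went the opposite way, by -0.59, -0.446 and -0.000969 in 2i-14 and by 0.0499 and 0.139 in 2i-O48 and 2i-O48-TKO; it did not pass the filter, its difference was not called by limma without the filter, and the change against p50 is under 1 fragment. No member had a TSa2i/L library far from the other 4 by Dixon's criterion, in 7 genes checked.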

How the results depend on the processing

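The genes called between TSa2i/L and 2i/L numbered 786, and 208 without the filter, 468 with TSa2i-14 only, 137 without the libraries with fibroblast RNA and 299 to 846 with a library left out (299 without 2i-14 p39, 431 without 2i-14 p50, 440 without TSa2i-14 p47, 504 without 2i-14 p18). Deleted lines against wild type had 21 calls, and 4 to 29 with a library left out (4 without 2i-O48, 11 to 13 without 2i-14 p18, 2i-O48-TKO or either switched deleted library) and 29 without 2i-14 p39. The switch in the deleted lines had 350 calls, 102 without the filter, 225 with a mean FPKM of at least 0.5 and 22 to 440 with a library left out (22 without switched 2i-O48, 69 without switched 2i-O48-TKO, 73 without 2i-O48, 178 without 2i-14 p39, 192 without 2i-O48-TKO). The difference between genotypes had 0 calls, 165 without the filter, 4 with a mean FPKM of at least 0.5 and 0 to 3 with a library left out (3 without 2i-14 p39, 1 without 2i-14 p50). Median centring put 359 of 639 calls by medium on the higher side, against 594 of 786, and 230 of 372 calls for the switch, against 109 of 350. With the cell line as a replicate block, the switch had 250 calls and the difference 0, and no call of a member changed.

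Meg3, Rian and Mirg kept their sign in both permutation comparisons under every alternative run; leaving out a library or comparing fewer libraries put p above 0.05 by construction. Signs turned for Rtl1 (0.0825) and Begain (0.0299) by medium with median centring. With a library left out, Dio3 ran from -0.0205 (without 2i-14 p18) to 0.274 by medium and from -0.0358 (without 2i-14 p18) to 0.161 by genotype, and Rtl1 by genotype ran from -0.00418 (without switched 2i-14) to 0.0966. The switch in the deleted lines turned for Meg3 with median centring (0.0706) and quantile normalization (0.0479) and for Mirg with median centring (0.157). The cause was not tested. Comparing the 2i/L libraries alone by genotype, and leaving the fibroblast-RNA libraries out of the permutation tests, were chosen after seeing the data.

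Depth limits the coding members, the deleted lines, and Rian and Mirg in TSa2i/L, where most values rest on fewer than 10 fragments.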
